A study of Mus musculus with 16 samples.

Results

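The genes described here are those for the proteins of the cytosolic ribosome, taken by symbol: RefSeq mouse protein-coding genes whose symbol begins with Rpl or Rps and a digit, or with Rplp or Rpsa, with the Rps6k kinases left out. The rule found 91 of 21887 protein-coding genes, on 19 chromosomes. By what each product is known to be, 31 were genes of the small subunit and 46 of the large subunit, together called core genes below. Another 7 were paralogues of a core gene, 6 carried names of retrocopies or pseudogene-like copies, and 1 was Rps19bp1, whose product binds Rps19 and is no ribosomal protein. The rule leaves out some genes of ribosomal proteins with other symbols, such as Fau and Rack1. A gene was called open when a region of open chromatin overlapped the 1 kb around either end of its annotated body. The rule used no measured value.

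Chromatin accessibility was measured by ATAC-seq, a method that marks accessible DNA with the transposase Tn5. The cells came from the bone marrow of male C57Bl/6 mice and were depleted of those with the surface markers CD3, CD4, B220, Ter119 and Gr1. The 4 groups of 4 libraries were control baseline, control with interleukin-1β (IL-1β), diabetic baseline and diabetic with IL-1β. The diabetic mice alone had received streptozotocin, a toxin of pancreatic β cells, so that diabetes and the drug cannot be told apart. Each of 8 mouse samples gave a baseline portion, lysed without culture, and a portion kept for 6 h in 10 ng/mL of IL-1β, an inflammatory cytokine. IL-1β and culture therefore always came together. The submitters name the cells haematopoietic stem cells. Of 10 stem and progenitor marker genes 9 were open, but so were 9 of 10 mature neutrophil and 7 of 8 erythroid markers. All 8 granulocyte-monocyte progenitor, 6 monocyte and macrophage and 5 megakaryocyte markers were open as well. Of 7 B cell markers 3 were open, and those without a region included Pax5, Ms4a1 and Vpreb1. Open were also 5 of 8 T and NK cell, 4 of 5 dendritic cell and 2 of 6 stroma and endothelium markers. Over all protein-coding genes 60.8% were open. A lineage-depleted fraction holds many progenitor types, and in such a bulk sample a lower signal from every cell and fewer cells with an open site cannot be told apart.

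Ribosomal protein genes are among the most strongly and most steadily transcribed genes of dividing cells, since each ribosome needs one copy of nearly every protein and the subunits must be made in balance. Their promoters lie in unmethylated, CpG-rich DNA, mostly lack a good TATA box, and start transcription at a C inside a stretch of pyrimidines. The mRNA then begins with the 5′ terminal oligopyrimidine (TOP) motif, through which mTOR signalling controls its translation. Many introns of these genes carry small nucleolar RNAs. In bone marrow the family is known from Diamond-Blackfan anaemia and the 5q- syndrome, in which loss of 1 copy of a ribosomal protein gene impairs red cell formation.

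A few windows around the annotated start are shown first because the results below turn on these genes. Rpl24 and Rpl7l1 had the only regions past the test after IL-1β. Rpl27, Rpl27a and Rps12 stood highest by fold among the members' regions at gene ends. Rps2 was missed by the rule of 1 kb, and Rps19, Rpl11 and Rpsa belong to the genes followed by name. Each window holds 75 bases before and 25 bases from the annotated start, 5′ to 3′ on the gene's strand, from RefSeq's promoter table on GRCm38.p6. Capitals mark runs of at least 8 pyrimidines (C or T) on the gene's strand and the motif CGGAAG, the core bound by ETS factors such as GABP, on either strand. Rpl24 lies at chr16:55966200-55966299 (plus strand), Rpl7l1 at chr17:46782632-46782731 (minus), Rpl27 at chr11:101442170-101442269 (plus), Rpl27a at chr7:109519120-109519219 (plus), Rps12 at chr10:23787185-23787284 (minus), Rps2 at chr17:24719988-24720087 (plus), Rps19 at chr7:24884517-24884616 (plus), Rpl11 at chr4:136053369-136053468 (minus) and Rpsa at chr9:120127691-120127790 (plus).
Rpl24: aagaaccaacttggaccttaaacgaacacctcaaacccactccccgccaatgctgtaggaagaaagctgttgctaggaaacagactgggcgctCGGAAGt
Rpl7l1: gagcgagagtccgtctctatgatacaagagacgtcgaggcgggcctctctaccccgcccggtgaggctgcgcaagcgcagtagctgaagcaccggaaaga
Rpl27: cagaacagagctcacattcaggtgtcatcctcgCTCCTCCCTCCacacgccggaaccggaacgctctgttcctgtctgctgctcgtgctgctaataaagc
Rpl27a: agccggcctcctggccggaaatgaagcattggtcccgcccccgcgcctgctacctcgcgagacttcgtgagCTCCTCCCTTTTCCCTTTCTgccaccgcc
Rps12: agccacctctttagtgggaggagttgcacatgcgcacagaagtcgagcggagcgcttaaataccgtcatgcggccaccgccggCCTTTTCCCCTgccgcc
Rps2: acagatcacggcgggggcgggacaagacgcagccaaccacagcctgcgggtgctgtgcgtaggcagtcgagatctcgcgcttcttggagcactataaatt
Rps19: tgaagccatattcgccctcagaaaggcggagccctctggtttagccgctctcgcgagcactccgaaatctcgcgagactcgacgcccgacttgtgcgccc
Rpl11: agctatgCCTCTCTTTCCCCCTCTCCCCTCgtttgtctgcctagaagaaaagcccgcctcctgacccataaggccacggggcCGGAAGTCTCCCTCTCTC
Rpsa: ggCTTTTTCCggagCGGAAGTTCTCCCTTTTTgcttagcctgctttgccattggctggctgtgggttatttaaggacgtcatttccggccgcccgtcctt

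The pyrimidine run of Rpl27a, from 4 bases before to 16 after the annotated start, holds the start itself, whereas that of Rps12 begins 9 bases into the annotated transcript. The windows of Rpl7l1, Rps2 and Rps19 had neither feature. No match says only that these letters are not in that window.

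The promoter table held 70 of the 91 members, among them 57 core genes, and 17492 protein-coding genes (79.9%) in all. Its windows run from 250 bases before to 50 after each annotated start, and a gene with several starts counted when any window matched. A pyrimidine run of at least 8 within 50 bases of the start, on the gene's strand, was found in 48 of 57 core genes (84.2%) and in 39.2% of all genes. A run holding the first transcribed base was found in 17 core genes (29.8% against 4.20%). CTTTCC on the gene's strand within 50 bases of the start, a common beginning of TOP mRNAs, was present in 18 core genes (31.6% against 5.12%), and it can overlap a pyrimidine run. All 3 pyrimidine measures were thus more frequent in the core genes than over all genes.

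CGGAAG on either strand was present in 40 of 57 core genes (70.2%) and in 23.5% of all genes. TATAAA was present in 10.5% of core genes against 14.8%, the E-box CACGTG in 10.5% against 8.91%, and the SP1-type box GGGCGG in 61.4% against 49.2%, each on either strand. AAGATGG, the core of the YY1 motif, was found in 15.8% against 7.18%. The median GC content of the windows was close to that of all genes (58.3% against 56.3%), but the median window held 21 CpG against 13. Core genes with CGGAAG and a shared region at the start had a median of 83.1 reads at the highest summit (36 genes), and those without it 78.6 (14 genes), with ranges that overlapped from 46.7 to 121. Split by the pyrimidine run within 50 bases of the start, the median was lower with the run, 80.3 reads (41 genes), than without it, 88.0 (9 genes). Those ranges overlapped too.

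Of the 91 genes, 82 were open (90.1%, exact 95% binomial interval 82.1 to 95.4%, counting error only), against 60.8% of all protein-coding genes. Of 77 core genes 75 were open (97.4%), with 30 of 31 in the small and 45 of 46 in the large subunit. The mitochondrial ribosomal protein genes, which serve a different ribosome, had nearly the same share, 75 of 78 (96.2%). Fau and Rack1 were open as well. Only 1 of the 6 retrocopy-like genes and 5 of the 7 paralogues were open. Among these paralogues, Rpl3l was open only by a region past its 3′ end, shared with Msrb1. The highest summit there lay 3850.5 bp downstream of the nearest annotated start of Rpl3l. Among 324 annotated pseudogenes with a ribosomal protein symbol 21 were open (6.48%), close to the 7.84% of all 10429 pseudogenes. Regions called in all 16 libraries were found at 79 of the 91 genes (86.8%) and at 48.5% of all genes.

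The 9 genes without a region at their ends were Rps2 and Rpl17 of the core, the paralogues Rpl10l and Rpl39l, and the copies Rpl32l, Rpl31-ps12, Rps27rt, Rpl37rt and Rps23rg1. Rpl10l and Rpl39l are known from the testis, where they stand in for the X-linked Rpl10 and Rpl39 genes. Rpl22, Rpl19 and the copy Rpl34-ps1 were open but not in every library: a region was called in 15, 9 and 4 libraries respectively, with at most 29 reads at any summit.

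Rps2, Rpl17, Rpl19 and Rpl22 each had another region inside the gene body that was called in 16 of 16 libraries, 1556, 1220, 3179 and 1031 bp from the nearer end of the annotated body. At Rps2 that region (chr17:24719677-24720307, mm10) held 97.3 reads at its highest summit on average, and at Rpl22 (chr4:152325467-152326436) 110.8 reads. The annotated starts of Rps2, Rpl19 and Rpl22 in the promoter table lie inside these inner regions. With the body extended by 1 kb as the window, an alternative added after these genes were seen, 85 of 91 genes were open, and so were all 77 core genes. The absence of Rps2 and Rpl17 from the open genes thus depended on the window.

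Of 57 core genes with an annotated start, 53 had that start inside the region by which the gene is described here. That was the one with the most reads at the gene's ends, except at Rps2, Rpl19 and Rpl22, 3 of the 53, where the inner region was used. In the exceptions the strongest region lay elsewhere. Among them, that of Rpl41 lay near Zc3h10, that of Rpl4 lay at the far end near Snapc5, and that of Rpl18 lay at the outer end of its annotated body. Over the 57 genes the highest summit lay at a median of -46 bp, upstream of the nearest annotated start, with quartiles of -77.5 and -11.5 bp. It lay upstream in 47 genes and within 100 bp of the start in 47. The summit kept its place from library to library: the median range over 16 libraries was 32 bp, and in 49 of 57 genes all 16 summits lay within 100 bp of each other.

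**Figure D1:**
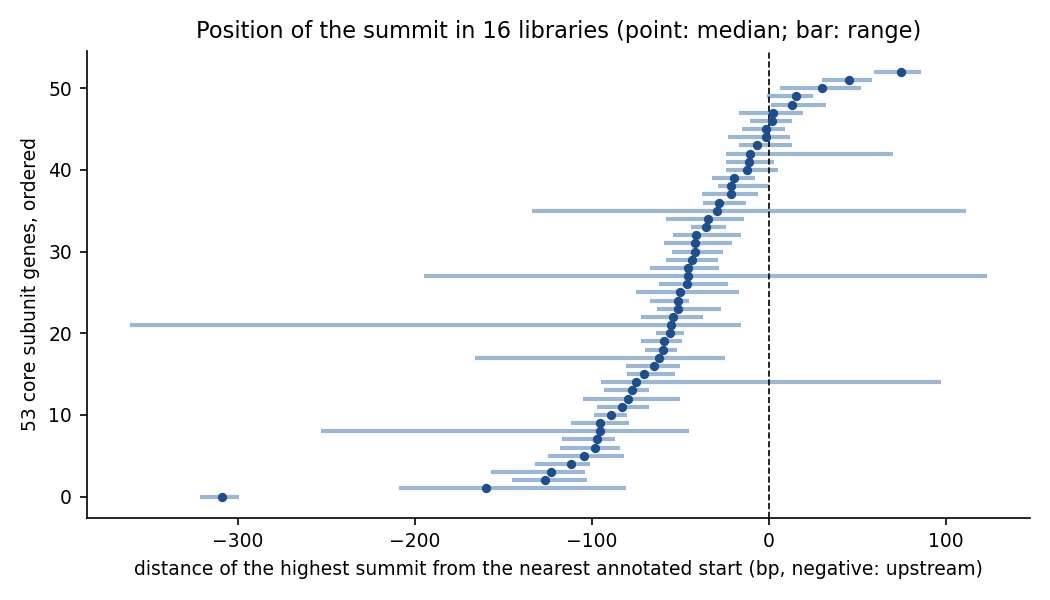
Distance in bp of the highest summit from the nearest annotated start (x axis, negative values upstream) for the 53 core genes whose start lies inside the region, one line per gene. Points are medians and bars the range over 16 libraries; most summits sit shortly upstream of the start, and 7 bars are wider than 100 bp.

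Shared regions, those called in all 16 libraries, numbered 24955, and 87 of them lay at ribosomal protein genes. Of these 24 (27.6%) also lay within 1 kb of the end of another protein-coding gene, against 17.9% of all shared gene-end regions. A shared region between 2 genes cannot be assigned to one of them. Rpl15 with Nkiras1, Rps18 with Vps52, Rpl9 with Lias, Rpl7 with Rdh10 and Rpl37 with Card6 are such cases.

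The signal at a region is given on 2 scales. Reads are whole reads at the highest summit, recovered from the deposited fold and p and scaled so that the median shared region is equal in all libraries. The fold is the peak caller's own ratio of summit to local background, in the authors' lists, and is ranked only within a list. Ribosomal protein regions held a median of 80.2 reads, against 37.99 for all shared regions and 63.9 for the 9942 shared regions at any gene end. The median of the mean folds was 12.7, against 9.05 and 10.9. The mean percentile of the fold among the shared regions of the same library had a median of 78.8 over the 87 regions, against 66.1 at all gene ends. It exceeded 90 in 21 of the 87 regions and stayed under 50 in 15. In related gene lists described below the median percentile was 85.9 for ribosome biogenesis and 80.2 for the RNA polymerase I list. It was 74.3 for mitochondrial ribosomal proteins, 69.4 for initiation factors and 57.0 for elongation factors and other TOP genes. Small-subunit genes, by their strongest region, had a median of 81.3 reads and large-subunit genes one of 80.2 reads.

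Rpl27, of the large subunit, stood highest, with a mean fold of 20.2 and a mean percentile of 99.6. It was followed by Rps12 (percentile 96.1), Rpl27a (95.6), Rps20 (95.5) and Rps16 (95.4). By reads the order differed, since Rpl37 led with 138.6 and Rpl27a followed with 137.2.

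The lowest percentiles belonged to Rpl7 (18.8), Rpl18 (39.2), Rpl35 (40.6), Rpl8 (46.0) and Rpl32 (48.7). Rpl7, a large-subunit gene, shares with Rdh10 a region 2086 bp long that held 5.50 summits on average, with 55.4 reads at the highest, a local background of 8.30 reads and a fold of 6.14. At Rpl18 104.1 reads stood over a background of 12.3 reads and gave a fold of 8.12. At Rpl8 52.2 reads stood over a background of 5.26 reads, and at Rpl32 48.3 reads over 4.55. Both held more reads than the median shared region (37.99), though fewer than the median ribosomal protein region (80.2).

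In each single library 79 to 82 of the 91 genes had a peak at an end, while the share of all protein-coding genes with one ran from 50.2 to 58.6%. The number was 80.5 ± 1.29 in control baseline, 79.3 ± 0.50 in control IL-1β, 80 ± 0.82 in diabetic baseline and 79.8 ± 0.96 in diabetic IL-1β libraries (SD, n = 4 each). The median percentile of the 87 regions was 75.9 ± 2.61, 80.3 ± 3.77, 77.4 ± 2.51 and 78.9 ± 3.61 in the same order (SD, n = 4 each). Ranges of all 4 groups overlapped for both measures, and no test was made of a score over the members.

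**Figure D2:**
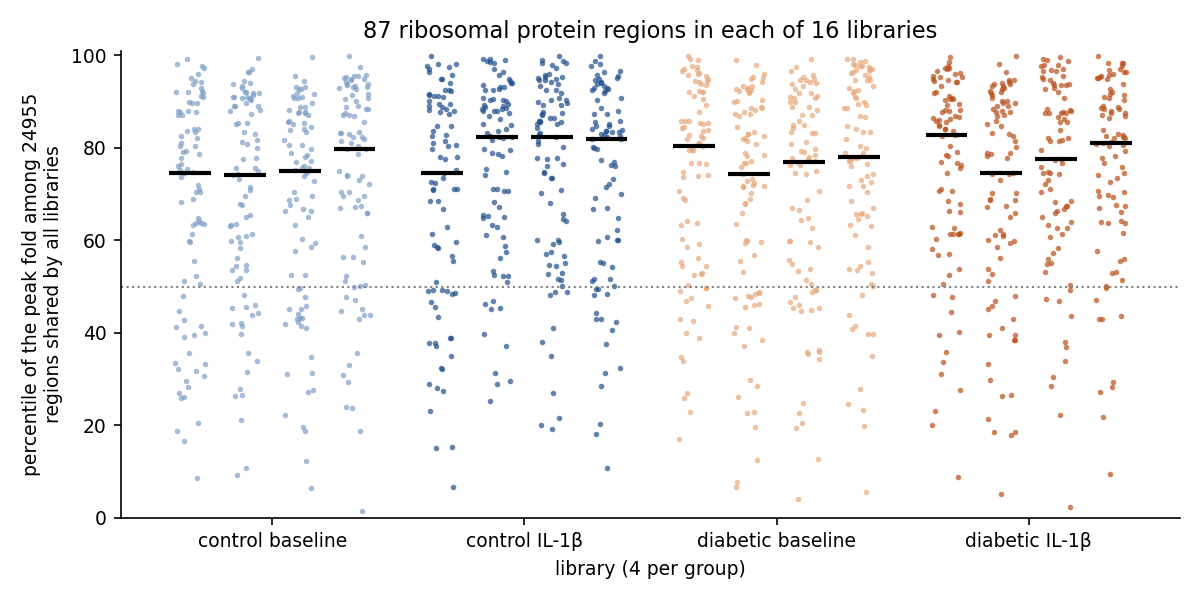
Percentile of the peak fold among 24955 shared regions (y axis) for the 87 ribosomal protein regions in each of 16 libraries, grouped by condition on the x axis. Each point is a region and each bar the median of a library; the medians run from 74.2 to 82.7 and the 4 groups overlap.

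Depth moved with these values. The median shared region held 27.0 to 58.0 unscaled reads per library, and the background of the peak caller ran from 0.856 to 1.71 reads. Divided by the median of all shared regions, the ribosomal protein regions had their lowest ratio, 1.79, in the library with the most reads (control baseline replicate 3, 58.0) and their highest, 2.37, in the one with the fewest (diabetic baseline replicate 4, 27.0). Before scaling, the highest summit of any region held 196 reads in control baseline replicate 3 and 198 in diabetic baseline replicate 4. After scaling, diabetic baseline replicate 4 was the highest library at 40 of the 87 regions, and control baseline replicate 3 the lowest at 31. Baseline libraries held 44.0 ± 9.26 reads at the median shared region and IL-1β libraries 36.3 ± 6.36 (SD, n = 8 each). The part of depth in the changes below was not tested.

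The spread between libraries was measured next. The SD of log2 reads over all 16 libraries, groups ignored, had a median of 0.16, against 0.25 for all shared regions and 0.19 at gene ends. Regions with many reads have less counting error: the 2678 shared regions with 85.2 reads on average had a median SD of 0.162, close to that of the ribosomal protein regions. The spread was therefore also divided by the counting error: a dispersion index of 1 is what Poisson counting alone gives. Its median was 0.837 for the ribosomal protein regions, 1.12 for all shared regions and 1.07 at gene ends. In related gene lists described below it was 0.761 for the RNA polymerase I list and 0.908 for mitochondrial ribosomal proteins. For elongation factors and other TOP genes it was 0.930, for ribosome biogenesis 0.958 and for initiation factors 1.11. An index over 2 was reached by 10 of 87 regions (11.5%), against 17.9% of all shared regions.

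The smallest SDs belonged to Rpl9 (0.088), Rps18 (0.090) and Rpl26 (0.093). The reads of Rpl9 ran only from 82.6 to 100.3 over the 16 libraries. Rpl37 had the highest dispersion index, 4.44, followed by Rpl27a (3.31), Rps12 (3.27) and Rpl15 (3.07). At Rpl37 diabetic baseline replicate 4 reached 219.5 scaled reads and the other 15 libraries stayed between 104.2 and 161.1. Unscaled, no ribosomal protein region held more than 176 reads in any library. The part of depth and scaling in the dispersion indices was not tested. The largest SD, 0.26, was that of the weaker of the Rps19 regions, which held 27.7 reads and had a dispersion index of 0.906.

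**Figure D3:**
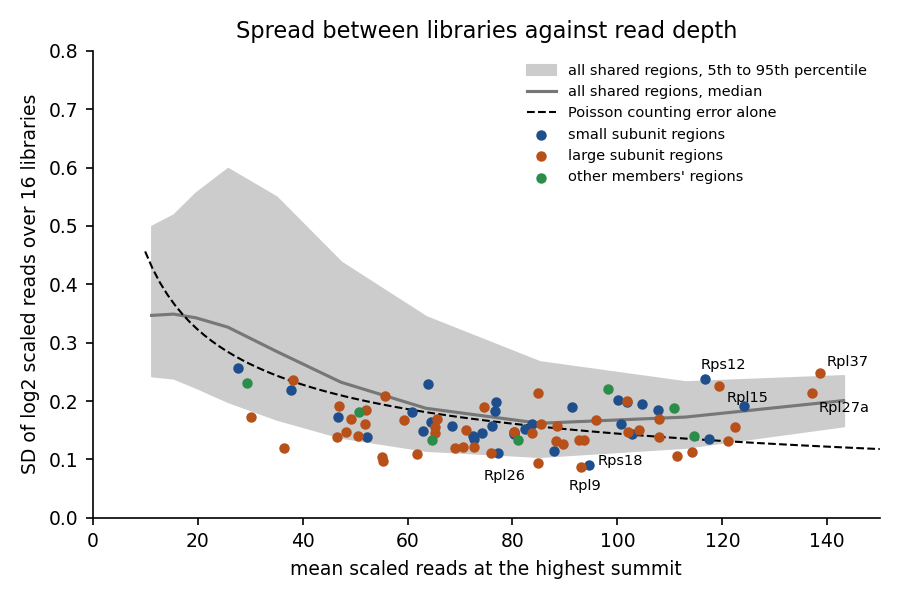
SD of log2 scaled reads over 16 libraries (y axis) against mean scaled reads at the highest summit (x axis) for the 87 ribosomal protein regions, coloured by class. The grey band and line give the 5th to 95th percentile and the median of all shared regions, and the dashed line the SD that Poisson counting error alone gives; most points lie near or under the dashed line, with Rpl37, Rps12, Rpl15 and Rpl27a above it.

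Whether IL-1β changed the chromatin of these genes was asked with limma on log2 reads of all 24955 shared regions, with p-values adjusted over all of them. With both phenotypes together 2 of 87 ribosomal protein regions passed an adjusted p of 0.05, 1 higher and 1 lower, which is 2.30% of them. The background was larger: 9.82% of all shared regions passed (6.42% higher, 3.4% lower), and 4.22% of those at gene ends. With the 2 portions of a mouse sample paired as a block, 2 of 87 and 14.8% of all passed. All 87 of the 95% intervals of the log2 change lay within 0.5 of zero, as did 70.0% of those of all shared regions and 88.9% of those at gene ends. The width of these intervals differed between the sets. In the same order the median SE was 0.080, 0.121 and 0.091, at median reads of 80.2, 37.99 and 63.9. No set with equal reads was compared. The median change was 0.05 for the 87 regions and 0.03 for all shared regions, and that of the 87 was -0.22 under background scaling and 0.0004 under loess. Without adjustment 7 of the 87 were higher and 1 lower at p under 0.05 in limma. Of the 24955 shared regions 3490 were higher and 2179 lower at that p, and of the 9942 at gene ends 989 and 441.

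Rpl7l1, a paralogue of the large-subunit gene Rpl7, was the member that rose (region chr17:46782249-46783371, mm10). Its reads in control mice 1 to 4 were 40.04, 48.4, 46.7 and 50.1 at baseline and 55.6, 54.1, 69.0 and 55.8 after IL-1β. In diabetic mice 1 to 4 they were 48.3, 48.6, 48.1 and 42.2 at baseline and 55.2, 51.4, 50.3 and 54.5 after IL-1β. In neither phenotype did the baseline and IL-1β libraries overlap, and all 8 mouse samples were higher after IL-1β. The log2 change was 0.26 ± 0.081 (SE, limma, adjusted p = 0.0439, range 0.0334 to 0.954 over the alternatives). When libraries were scaled by their background instead, the change turned to -0.013.

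Rpl24, a large-subunit gene, was the member that fell (region chr16:55966113-55966905, mm10). Control mice 1 to 4 had 52.6, 61.0, 56.2 and 57.9 reads at baseline and 44.2, 51.4, 50.0 and 52.7 after IL-1β. Diabetic mice 1 to 4 had 62.4, 70.1, 57.7 and 74.1 reads at baseline and 46.7, 49.5, 50.3 and 64.6 after IL-1β. The groups overlapped in both phenotypes, but every one of the 8 mouse samples was lower after IL-1β than at baseline. The log2 change was -0.26 ± 0.084 (SE, limma, adjusted p = 0.0451, range 0.0143 to 0.449 over the alternatives).

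Both calls lay close to the threshold. With 1 library left out in turn, the adjusted p of limma for Rpl7l1 lay above 0.05 in 12 of 16 cases and that for Rpl24 in 11 of 16, without a change of sign. Without diabetic baseline replicate 4 the count was 7 instead of 2: Rps21, Rps20, Rps19 and Rpl15 were among those that rose as well, and 17.0% of all shared regions passed. Under cyclic loess, a scaling that removes trends with signal strength, none rose and 4 fell (Rpl24, Rps13, Rpsa and Rpl27a). Scaling by background moved the median of all shared regions to -0.24, and there Rpl24, Rps13, Rpsa and Rps27 fell. Of the genes named under these settings, Rpl24 alone was called under median, loess and background scaling alike.

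**Figure D4:**
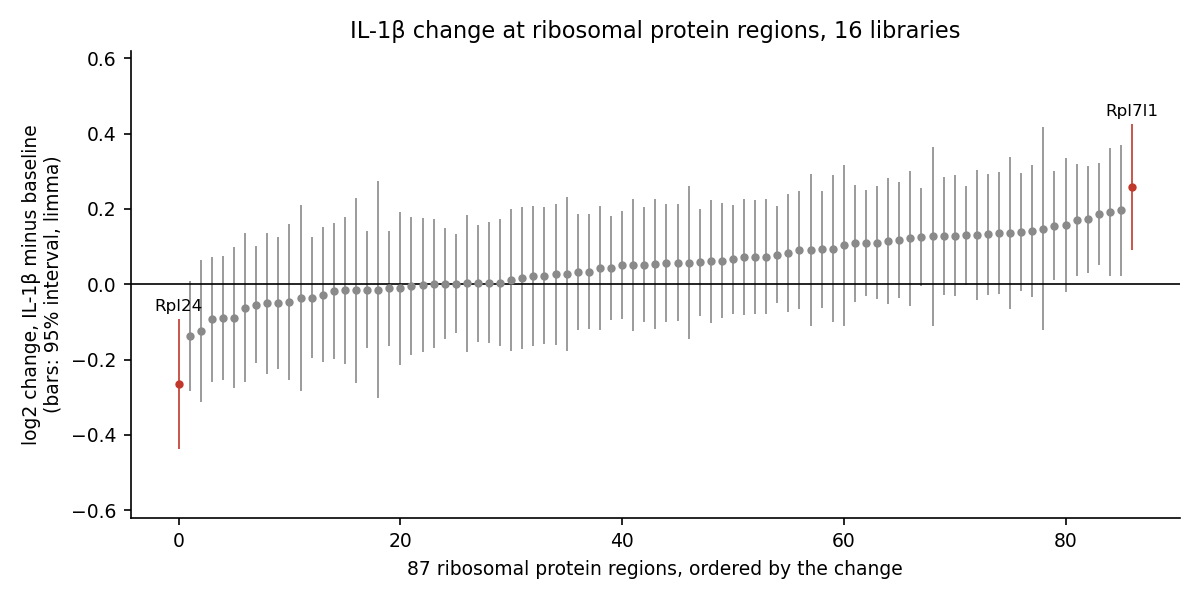
Log2 change in reads, IL-1β minus baseline over both phenotypes (y axis), of the 87 ribosomal protein regions ordered by the change (x axis), with 95% intervals from limma. Red marks Rpl24 (-0.26) and Rpl7l1 (0.26), the regions past the adjusted threshold, and every interval lies within 0.5 of zero.

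In control mice alone, 0 of 87 regions passed the limma test (5 higher and none lower at unadjusted p under 0.05), against 2.75% of all shared regions and 0.855% of those at gene ends. At that unadjusted p 2347 of the 24955 shared regions were higher and 1470 lower, and 766 and 260 of the 9942 at gene ends. In diabetic mice alone 0 of 87 passed as well (1 higher, 1 lower unadjusted), against 2.83% and 0.835%. Of all shared regions 2228 were higher and 1235 lower unadjusted there, and of those at gene ends 385 and 282. With the block 0 of 87 passed in each phenotype, and the shares of all shared regions that passed were 5.54% in control and 5.51% in diabetic mice. The median change was 0.09 in control mice and 0.01 in diabetic mice, against 0.04 and 0.01 for all shared regions. The sign of these medians depended on the scaling: under background scaling they were -0.16 in control and -0.28 in diabetic mice, and under loess 0.01 and -0.01. Without diabetic baseline replicate 4 the median in diabetic mice was 0.08. The difference of the IL-1β change between the phenotypes passed at 0 of 87 regions, and at 0% of all (limma). Unadjusted, 2 were lower and none higher. These were the Rpl36al region, shared with Mgat2, and the weaker of the 2 Rpl41 regions. That weaker region holds the annotated start of Rpl41, and both Rpl41 regions also lie within 1 kb of an end of Zc3h10. Of all shared regions 187 were lower and 229 higher unadjusted, and of those at gene ends 82 and 32.

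Between phenotypes nothing passed. Diabetic minus control at baseline gave 0 of 87 calls and 0% of all shared regions (limma). At unadjusted p under 0.05 in limma 5 ribosomal protein regions were higher and none lower. Of the 24955 shared regions 1766 were higher and 1177 lower, and of the 9942 at gene ends 973 and 145. Among the 5 were the regions of Rps12 and Rps9 and that of Rpl36al, shared with Mgat2. The weaker of the 2 Rpl41 regions, which holds that gene's annotated start, was another. The stronger, beyond the other end of the gene, had an unadjusted p of 0.247 in limma. Both of these regions also lie near Zc3h10. The median difference was 0.10 on the log2 scale, against 0.07 for all shared regions and 0.13 at gene ends, and fell to 0.05 without diabetic baseline replicate 4. Under background scaling it was -0.12 and under loess 0.01, so that its direction depended on the scaling. In the same contrast the marker regions had median differences of 0.58 at erythroid (5 regions), 0.50 at megakaryocyte (1 region) and -0.31 at mature neutrophil genes (12 regions). None of these regions passed, and their part in the difference was not tested. At Rps12 the reads of control baseline libraries were 91.9, 112.8, 88.7 and 108.9 and those of diabetic baseline libraries 122.8, 120.6, 103.3 and 173.0. These groups overlapped, and the highest value was again that of diabetic baseline replicate 4. After IL-1β, diabetic minus control gave 0 of 87 calls, 0% of all and none at unadjusted p under 0.05 in either direction (limma). Of all shared regions 734 were higher and 352 lower at that unadjusted p, and of those at gene ends 283 and 41. The median of the 87 was 0.03, against 0.04 for all shared regions, and it was -0.22 under background scaling and -0.0016 under loess.

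Among the genes known from marrow failure, Rps19, the gene most often mutated in Diamond-Blackfan anaemia, had 107.6, 112.8, 95.4 and 110.9 reads in control baseline and 112.9, 128.6, 133.2 and 118.8 in control IL-1β libraries. Diabetic baseline libraries had 117.8, 111.2, 105.7 and 122.1 and diabetic IL-1β libraries 129.4, 119.6, 130.0 and 131.7. Control baseline and control IL-1β libraries did not overlap, the diabetic groups did, and the IL-1β portion was higher in 8 of 8 mouse samples. The change of 0.19 ± 0.066 (SE) did not pass the limma test (adjusted p = 0.0759, and 0.0218 without diabetic baseline replicate 4).

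Rpl5 and Rpl11, whose products bind 5S RNA and can restrain Mdm2, the inhibitor of p53, changed by 0.09 (95% interval -0.06 to 0.25) and 0.03 (-0.12 to 0.19). Rpl11 held 68.3, 67.7, 64.3 and 68.7 reads in control baseline and 69.5, 67.7, 71.4 and 71.3 in control IL-1β libraries, which overlapped. Its diabetic libraries had 77.5, 67.3, 63.3 and 82.9 reads at baseline and 67.9, 70.1, 68.7 and 86.1 after IL-1β, around the same level. Rps14, the gene of the 5q- syndrome, changed by 0.14 (-0.02 to 0.30), and its 16 libraries ran from 70.5 to 101.3 reads. None of the 22 regions at 20 ribosomal genes known from these disorders passed after IL-1β.

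The stalk proteins Rplp0, Rplp1 and Rplp2, which recruit elongation factors, changed by 0.12, 0.06 and 0.06, with adjusted p-values of 0.423, 0.705 and 0.670 in limma. Rpsa, a small-subunit protein also known as a laminin receptor, changed by -0.09 (95% interval -0.26 to 0.07). Its reads were 101.3, 104.4, 86.0 and 107.0 in control baseline, 89.96, 93.4, 96.4 and 106.4 in control IL-1β, 110.7, 98.1, 93.7 and 138.1 in diabetic baseline and 96.5, 92.5, 110.4 and 96.2 in diabetic IL-1β libraries. All 4 groups overlapped, though Rpsa passed under loess (-0.17, adjusted p = 0.0255) and background scaling (-0.36, adjusted p = 0.0460).

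**Figure D5:**
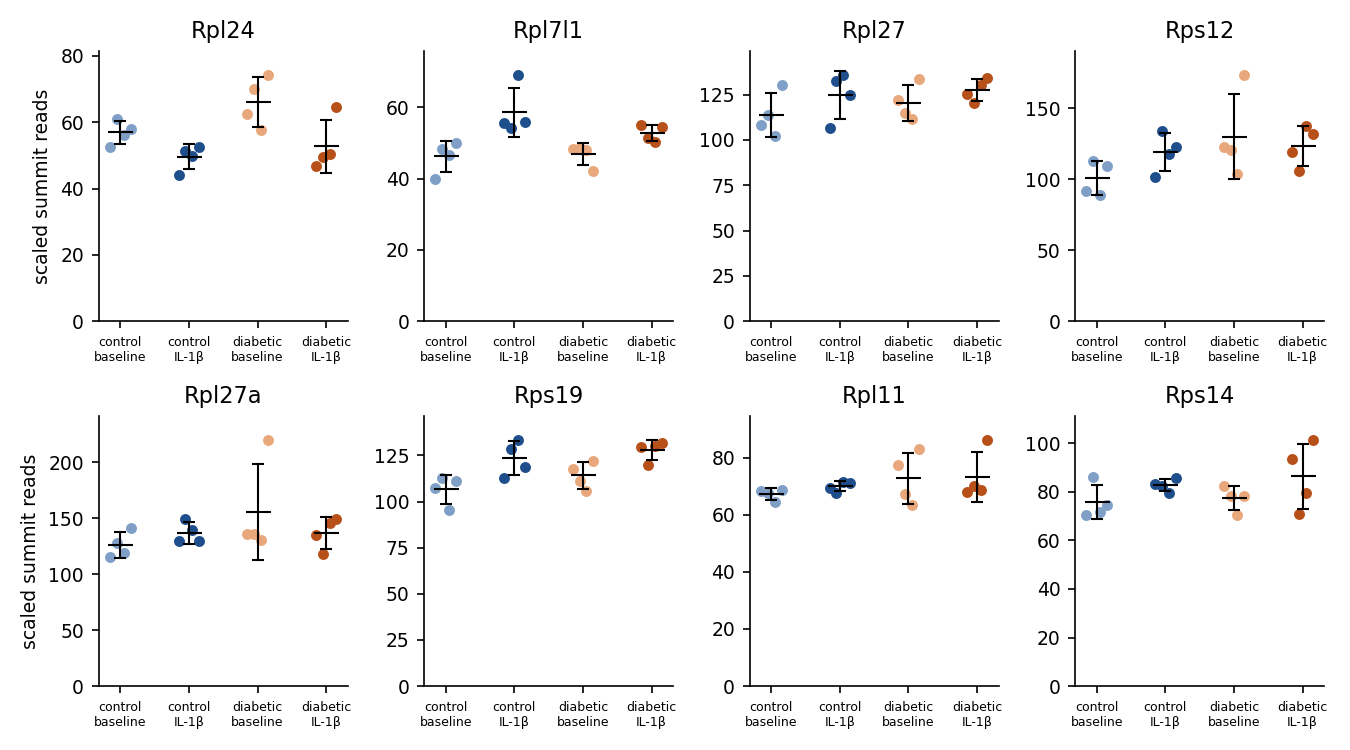
Scaled reads at the highest summit (y axis from 0) in each library of the 4 groups (x axis) for Rpl24, Rpl7l1, Rpl27, Rps12, Rpl27a, Rps19, Rpl11 and Rps14. Points are libraries, and bars give the mean and SD of 4; Rpl7l1 sits higher and Rpl24 lower after IL-1β, and the highest points of Rps12 (173.0) and Rpl27a (219.5) are diabetic baseline replicate 4.

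Lists of other genes of the translation machinery and its regulation gave 0 to 3 calls each after IL-1β. None of 18 regions of elongation factors and other TOP genes passed. Among 42 regions of initiation factors 2 rose, at Eif5b (0.28, adjusted p = 0.0137 in limma) and at Eif4a1 (0.32, adjusted p = 0.0343 in limma), the helicase that unwinds mRNA leaders, in a region shared with Cd68. Of 53 ribosome biogenesis regions 1 fell, at Rrp12, a factor of pre-ribosome maturation and export, where baseline libraries held 65.9 ± 5.12 and IL-1β libraries 44.9 ± 7.05 reads (SD, n = 8 each). Its log2 change was -0.56 ± 0.092 (SE, limma, adjusted p = 0.000238), lower in 8 of 8 mouse samples, and it passed in each phenotype alone.

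Of 19 regions of the RNA polymerase I list, 1 fell, at Polr2k (-0.35), a subunit common to the nuclear RNA polymerases. Of 31 regions of transcriptional regulators and mTOR pathway genes 3 rose, at Akt1 (0.36), Sp3 (0.24) and Zbtb7a (0.36), and none fell. In the p53 list 1 of 12 rose, at Bbc3 (0.26), a pro-apoptotic target of p53. Among 82 regions of mitochondrial ribosomal protein genes 1 rose, at Mrpl41 (0.26), in a region shared with Pnpla7. These counts stand beside the 9.82% of all shared regions and the 4.22% of those at gene ends given above. Of marker regions, 2 of 12 at mature neutrophil genes rose and 1 fell, 1 of 5 at granulocyte-monocyte progenitor genes rose and 1 fell, and 1 of 2 at B cell genes rose, and their part in the changes above was not tested.

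Beyond their promoters the members shared features of gene structure. Their median length was 3175 bp, against 17169 bp for all protein-coding genes. A small nucleolar RNA lay inside 30 of the 91 genes (33.0%), against 1.70% of all.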

How the data were processed

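ATAC-seq libraries of 16 samples were sequenced from nuclei of 50000 cells each with 50-bp single reads, and fragments above 1200 bp were removed, per the labels' protocols. The submitters' processing notes name the build mm10, the aligner Bowtie2 2.2.6, the peak caller MACS2 2.1.1 and, among others, DiffBind 2.4.8. A shift of reads for Tn5 and a removal of duplicates, which can move summits and limit reads, are not given in the sources used here. Each deposited list belongs to 1 library, with peaks called per library. Its columns are the deposited score, the deposited fold (a ratio over local background), the deposited −log10 p and q, and the summit's place (another number, in bp), in the form the authors' caller gave. Scores were not used.

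Members and gene lists were chosen with earlier results of these data known. Peaks were merged into regions, and the 83972 found in 2 or more libraries were used. Genes came from a RefSeq table on GRCm38.p6, which has the mm10 coordinates on its main chromosomes. Summit reads n and local background λ were recovered from the fold, (n + 1) / (λ + 1), and the Poisson p to within 0.001 in −log10 p, in 99.9 to 100% of summits per library. Log2 reads at the highest summit of the 24955 regions called in all 16 libraries were brought to a common median per library and fitted with limma 3.58.1 (R 4.3.3) with 4 group means, a trended variance and Benjamini-Hochberg adjustment. Recovery and fit were tested on simulated data. Each phenotype has 4 mouse samples. The main fit took the 16 libraries as independent, so its p-values leave out that 2 portions came from each mouse sample. A fit with the mouse sample as a block was run as an alternative. Lines of 1 peak with several summits were joined. The dispersion index is the chi-square of the reads over 16 libraries divided by 15.

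Each mouse sample was divided, per the series design, so equal numbers within a phenotype name the same sample. Over shared regions, the departures of its portions from their groups correlated by 0.42, 0.36, 0.01 and 0.07 (control 1 to 4) and 0.40, 0.19, -0.04 and 0.33 (diabetic 1 to 4). The genes described by name are members without a region or without one in all libraries, regions past the test, the 5 highest and 5 lowest by percentile, the 3 smallest and 3 largest SDs, and Rps19, Rpl5, Rpl11, Rps14, Rpsa, Rplp0, Rplp1 and Rplp2. Of the other lists up to 3 regions past the test were named. Rpl37, Rpl27a and Rpl15 stand also for their dispersion, and Rps9, Rpl36al, Rpl41, Rpl3l, Rps13, Rps21 and Rps27 were named after their values were seen. A few genes under this rule are not reported here. Alternatives were other scalings, a mouse block, other thresholds, windows and overlaps, and each library left out. Figures were drawn with matplotlib 3.10.9.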

Additional observations from a re-analysis of the deposited data

Results flagged for a closer look

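A library lay far from the other 3 of its group, by Dixon's 95% critical value, in 9 of 108 groups of 4 examined over member-level values and named regions. Chance marks about 1 in 20. In control IL-1β replicate 1 the share of ribosomal protein genes with a peak was the highest of its group (87.9%, 80 genes against 79 in each of the others) and the median percentile the lowest (74.7). In control baseline replicate 4 the median percentile was the highest of its group (79.8). Diabetic baseline replicate 4 stood apart at Rpl27a (219.5 scaled reads, others 130.6 to 135.9), at Rpl5 (82.9, others 69.2 to 71.5) and at Rpl7l1, where it was the lowest (42.2, others 48.1 to 48.6). Control baseline replicate 4 was high at Rpl5 (77.5, others 59.7 to 61.8), control IL-1β replicate 3 at Rpl7l1 (69.0, others 54.1 to 55.8) and diabetic IL-1β replicate 4 at Rpl11 (86.1, others 67.9 to 70.1).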

How the results depend on the processing

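The count of ribosomal protein regions past the test after IL-1β over both phenotypes, 2 as reported, was 4 under background scaling, 4 under cyclic loess, 1 over regions called in at least 12 libraries, 0 with the sum of all summit reads and 1 with an untrended variance, and ran from 0 to 7 with 1 library left out. The 7 came without diabetic baseline replicate 4. The 1 over regions called in at least 12 libraries was a different region at Rpl18 (0.40, adjusted p = 0.0101 in limma), and Rpl24 and Rpl7l1 were not called there. With the replicate block, which pairs the portions of a mouse sample, the count stayed at 2 (1 higher, 1 lower) and no call at these regions changed in the other contrasts. The share of all shared regions past the test was 9.82% as reported, 14.8% with the block, 10.2% under background scaling, 10.5% under loess, 9.30% over regions called in at least 12 libraries, 7.59% with summed reads and 9.67% with an untrended variance. With the block it was 5.54% within control and 5.51% within diabetic mice. Those contrasts gave 0 under every setting run. Rpl7l1 changed sign under background scaling (-0.013), and the cause was not tested. The share of open genes was 95.6% with a window of 5 kb, and the mean share per library 84.5% with a window of 250 bp. Among gene-end regions alone the mean percentile of the fold was 64.2, against 78.1 among all shared regions. The other alternatives for these shares and percentiles stayed within the spread of the main value. The test covers only regions called in every library. Depth limits it too: with 4 mouse samples per phenotype the median SE of the log2 change was 0.08 over both phenotypes and 0.11 within one, so changes of such size were not detectable.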
